A study of Mus musculus with 16 samples.

Results

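Liver RNA was read for the mu-class glutathione transferases, the Gstm genes, chosen by symbol as every row of the deposited count table whose Ensembl mouse gene carries the symbol Gstm1, Gstm2, Gstm3, Gstm4, Gstm5, Gstm6 or Gstm7. These were 7 of the 53801 gene IDs in the table, and all 7 were among the 14351 genes that passed the filter on low counts. The family itself was chosen by a measured value, the higher Gstm3 count in high-fat knockout livers than in high-fat control livers, so for the members that comparison, and the interaction that contains it, are given below as levels and differences with no p-value and support nothing, and a count of calls is printed there only beside that of all genes. The same holds for Gstm3 wherever its high-fat livers are compared by diet. Genes outside the family are tested in every comparison.

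Glutathione transferases join the tripeptide glutathione to reactive, electron-poor compounds, which makes them water-soluble and ready for export from the cell. The mu class works as dimers in the cytosol, is abundant in hepatocytes, and is known to be induced in mouse liver by dietary antioxidants and by ligands of xenobiotic receptors. The transcription factors Nrf2 (gene Nfe2l2) and the constitutive androstane receptor (gene Nr1i3) are textbook regulators of genes of this kind.

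The study measured total RNA, depleted of ribosomal RNA, from 16 mouse livers in 4 groups of 4. The groups were livers of liver-specific Degs1 knockouts on a high-fat diet, controls on a high-fat diet, knockouts on normal chow, and controls on normal chow. Degs1 encodes dihydroceramide desaturase, the enzyme that turns dihydroceramide into ceramide. The sources used here do not give the genotype of the controls, the driver of the deletion, the strain, the age and sex, or the length of feeding. Animal numbers ran in separate blocks for the 4 groups, and nothing else ties livers to a batch, so the order in which animals were bred or handled and the group cannot be told apart. Each liver has its own animal number, and the p-values below measure the spread between livers.

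Total counts ran from 11938596 to 23250885 per liver. Degs1 averaged 31.3 ± 7.01 CPM (read counts scaled to library size by the trimmed mean of M-values) in high-fat knockouts and 73.4 ± 18.9 CPM in high-fat controls, and 38.0 ± 1.65 CPM in chow knockouts and 84.7 ± 3.13 CPM in chow controls (SD, n = 4 each). Its ranges did not overlap between genotypes on either diet. The summed level of 6 hepatocyte markers was 76519 to 97385 CPM in high-fat knockouts, 96434 to 124645 CPM in high-fat controls, 137454 to 162162 CPM in chow knockouts and 124134 to 139074 CPM in chow controls, which goes with the tissue label. Sense-intronic and unconfirmed transcripts as a class held 0.171 ± 0.0134% of the counts in high-fat knockouts, 0.09 ± 0.0651% in high-fat controls, 0.0664 ± 0.0218% in chow knockouts and 0.0345 ± 0.00624% in chow controls. High-fat control 3 had the lowest share of all 16 livers, 0.0218%, and a scaling factor of 0.879, against 1.04 to 1.07 in the other 3 high-fat controls. It is named below wherever leaving it out changes a call. The factors were 1.108 to 1.209 in high-fat knockouts, 0.8593 to 0.9635 in chow knockouts and 0.8933 to 0.9646 in chow controls, so they went largely with the group.

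The 7 genes form 1 cluster of 149 kb on chromosome 3 of GRCm38, from 107895821 to 108044894. In order along the chromosome they are Gstm5 (107895821 to 107898686), Gstm7 (107926334 to 107931817), Gstm6 (107938847 to 107943749), Gstm3 (107963696 to 107969283), Gstm2 (107981702 to 107986453), Gstm1 (108012255 to 108017973) and Gstm4 (108040408 to 108044894). Gstm5 lies on the plus strand and the other 6 on the minus strand. Every member has 8 exons in its principal GENCODE transcript, with a coding length of 657 bases, or 675 bases in Gstm5.

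The start of the coding sequence is shown for all members because they are close copies of each other, which bears on how far reads can be told apart. Each line gives 60 coding bases, 5′ to 3′, from coding base 4 to 63 (13 to 72 in Gstm5), and capitals mark the bases that differ from Gstm1.
Gstm1: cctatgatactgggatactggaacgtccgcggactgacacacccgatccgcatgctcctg
Gstm2: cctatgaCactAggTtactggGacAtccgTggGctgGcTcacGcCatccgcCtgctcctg
Gstm3: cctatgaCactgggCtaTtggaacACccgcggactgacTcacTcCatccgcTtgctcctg
Gstm4: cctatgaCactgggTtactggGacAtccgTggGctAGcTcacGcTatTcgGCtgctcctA
Gstm5: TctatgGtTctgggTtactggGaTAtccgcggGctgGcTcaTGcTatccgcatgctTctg
Gstm6: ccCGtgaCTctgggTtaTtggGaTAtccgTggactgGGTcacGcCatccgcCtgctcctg
Gstm7: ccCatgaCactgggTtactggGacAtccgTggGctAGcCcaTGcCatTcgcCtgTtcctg

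In this stretch Gstm3 differed from Gstm1 at 9 of the 60 bases, Gstm2 at 12, Gstm5 at 14, Gstm4 at 15, and Gstm6 and Gstm7 at 16 each. Over the whole coding sequence Gstm3 was the nearest to Gstm1, at 89.5% identity, followed by Gstm2 at 86.0%, Gstm6 at 82.8%, Gstm7 at 82.6%, Gstm4 at 80.2% and Gstm5 at 71.4%. Of all 50-base windows in the transcripts of Gstm3, 15.8% also occurred in another member (Gstm1 or Gstm6), and 28.8% occurred in some other annotated gene, members included. The shares were 8.88% and 18.9% for Gstm1, and 5.97% or less against all other genes for Gstm2, Gstm4, Gstm6 and Gstm7. Gstm5 shared 9.44% of its windows, all with the overlapping antisense gene 4933431E20Rik. How reads that map to several places were counted, and with which strand setting, cannot be read from the sources used here, so the values of Gstm1 and Gstm3 are uncertain to that degree, and those of Gstm5 and its antisense partner likewise. The pseudogene Gstm2-ps1, which shares windows with both Gstm1 and Gstm3, averaged 1.99 ± 0.449 CPM in high-fat knockouts, 1.09 ± 0.27 CPM in high-fat controls, 2.33 ± 0.913 CPM in chow knockouts and 2.1 ± 0.76 CPM in chow controls (SD, n = 4 each).

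Promoter sequence (RefSeq, GRCm38.p6) is shown for Gstm1 and Gstm3, the members that were lowest in high-fat controls with no overlap with any other group, and for Gstm7, whose level differed least over the 16 livers. All 7 members matched the RefSeq promoter table. Each line runs 5′ to 3′ on the minus strand and ends at the base before the annotated gene start, at chr3:108017974-108018223 for Gstm1, chr3:107969284-107969424 for Gstm3 and chr3:107931818-107932067 for Gstm7. Capitals mark matches, on either strand, to 4 motifs. These are the TATA box searched as TATAAA, the box searched as CCAAT, the GC box searched as GGGCGG, and TGACNNNGC, the core of the antioxidant response element that Nrf2 binds.
Gstm1: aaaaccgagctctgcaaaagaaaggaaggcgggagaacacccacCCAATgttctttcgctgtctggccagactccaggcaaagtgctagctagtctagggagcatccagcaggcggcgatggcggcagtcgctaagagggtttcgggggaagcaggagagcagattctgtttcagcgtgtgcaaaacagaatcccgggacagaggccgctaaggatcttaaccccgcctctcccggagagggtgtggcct
Gstm3: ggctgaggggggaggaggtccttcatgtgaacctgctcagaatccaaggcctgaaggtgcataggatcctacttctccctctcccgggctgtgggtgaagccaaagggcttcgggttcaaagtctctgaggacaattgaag
Gstm7: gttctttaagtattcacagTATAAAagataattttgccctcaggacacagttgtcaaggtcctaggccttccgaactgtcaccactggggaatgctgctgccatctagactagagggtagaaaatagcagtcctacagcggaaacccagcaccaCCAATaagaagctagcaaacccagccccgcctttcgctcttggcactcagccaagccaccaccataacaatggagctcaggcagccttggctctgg

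In the 250 bases before the RefSeq start, TGACNNNGC was found in Gstm5 alone of the 7 members, and in 10.2% of 32544 RefSeq promoters of the same length. CCAAT was found in Gstm1, Gstm2, Gstm4, Gstm6 and Gstm7, and in 33.8% of all promoters. TATAAA was found in Gstm7 and in 12.3% of all promoters. GGGCGG was found in Gstm3, Gstm4 and Gstm5, and in 33.0% of all promoters, and its match in Gstm3 lies in the 109 bases not printed, which GENCODE places inside the gene. In Gstm4 the CCAAT match and 1 GGGCGG match overlap. A second RefSeq start of Gstm1, 155 bases further downstream, has TATAAA at base -30 and CCAAT at bases -97 and -91 before it. These are matches of letters only.

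Gstm1 was by far the most abundant member in liver. Per kilobase of exon, it averaged 541 ± 185 CPM per kb over the 16 livers (SD). Gstm6 followed at 34.5 ± 9.48 CPM per kb, then Gstm3 at 33.9 ± 21.8, Gstm7 at 28.4 ± 4.84, Gstm2 at 25.4 ± 7.54, Gstm4 at 15.6 ± 5.42 and Gstm5, a member best known from brain and testis, at 6.74 ± 1.24 CPM per kb. Among Gstm6, Gstm3, Gstm7 and Gstm2, neighbours in this order differed by less than the larger of their SDs. Gstm3 varied most between livers: its highest level was 14.7-fold its lowest, against 3.73-fold for Gstm1, 3.08-fold for Gstm4, 2.73-fold for Gstm2, 2.51-fold for Gstm6, 2.01-fold for Gstm5 and 1.69-fold for Gstm7.

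**Figure D1:**
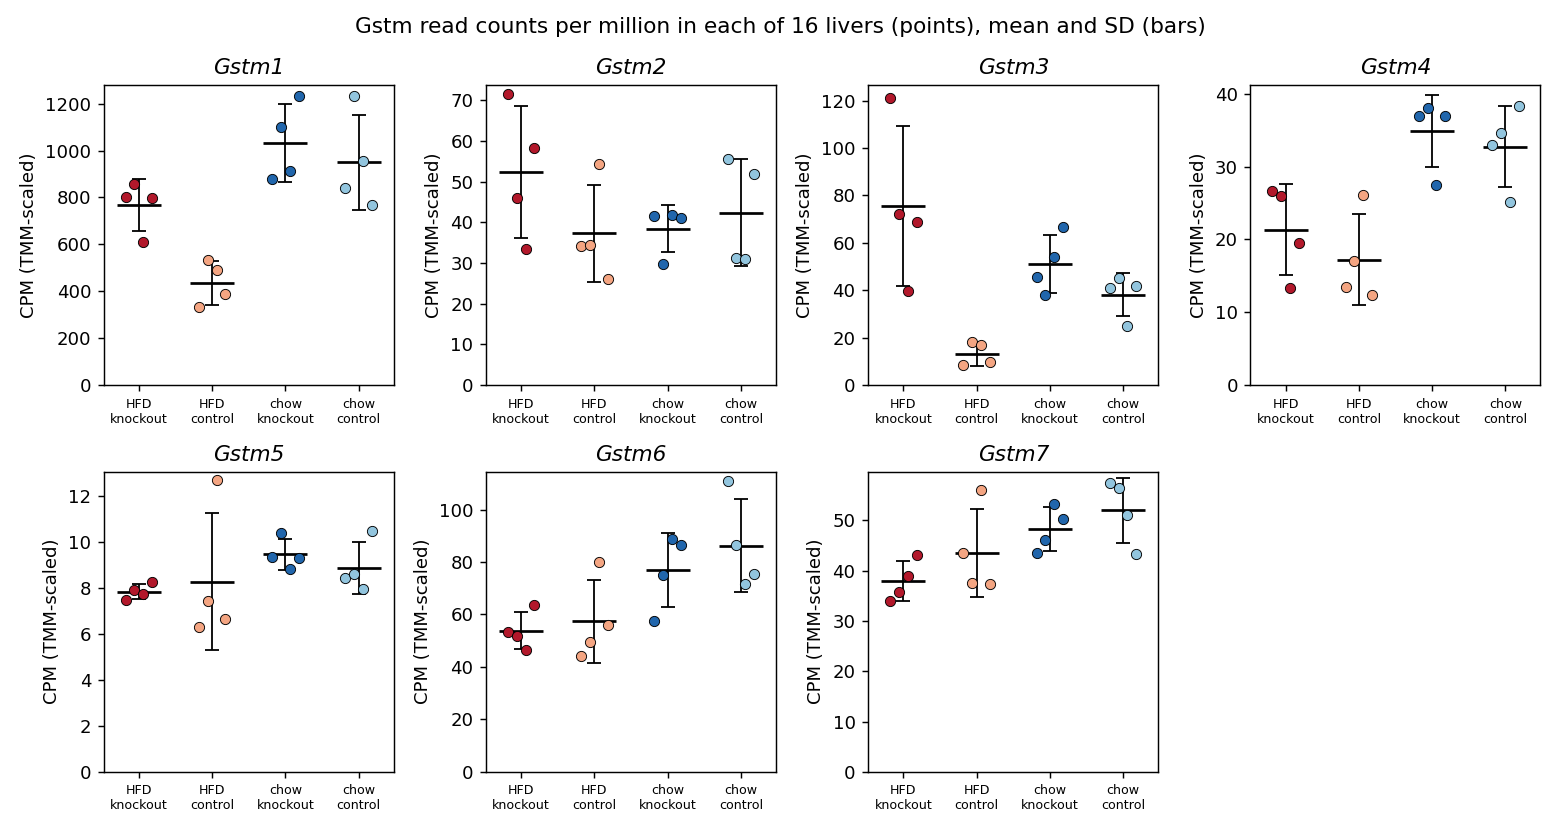
CPM of each Gstm gene (vertical axis, scaled by the trimmed mean of M-values) in the 16 livers by group, with 1 point per liver and the mean and SD in black. High-fat controls lie lowest for Gstm1 (331 to 534 CPM) and Gstm3 (8.27 to 18.2 CPM), with no overlap with any other group, while the 4 groups of Gstm2 overlap.

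Gstm3 stood out among the members in high-fat livers. It had 121, 72.2, 39.6 and 69.0 CPM in the 4 high-fat knockouts, against 8.27, 18.2, 16.7 and 9.65 CPM in the 4 high-fat controls. Every knockout was above every control. The means were 75.5 ± 33.9 CPM in high-fat knockouts and 13.2 ± 4.94 CPM in high-fat controls (SD, n = 4 each), a log2 fold change of 2.52 with a standard error of 0.32 in edgeR, or 2.19 to 2.73 without any single liver. This is the difference that chose the family. High-fat knockout 1, with the highest Gstm3, also had the highest Degs1 of its group, 41.6 CPM, against 26.1 to 29.2 CPM in the other 3.

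Gstm1 had 803, 859, 609 and 799.9 CPM in high-fat knockouts, against 331, 534, 489 and 389 CPM in high-fat controls. Again every knockout was above every control, with means of 768 ± 109 CPM in high-fat knockouts and 436 ± 92.4 CPM in high-fat controls (SD, n = 4 each). In edgeR the difference came to 0.82 on the log2 scale (standard error 0.19). Gstm2 had 71.5, 46.1, 33.5 and 58.2 CPM in high-fat knockouts, against 34.3, 34.4, 54.3 and 26.2 CPM in high-fat controls, and its groups overlapped (log2 fold change 0.49, standard error 0.25). Gstm4 had 26.7, 25.9, 13.3 and 19.5 CPM in high-fat knockouts, against 13.4, 17.0, 26.1 and 12.4 CPM in high-fat controls, also with overlap (0.31, standard error 0.24). Both values depend on single livers: without 1 liver they were 0.30 to 0.75 for Gstm2 and 0.17 to 0.60 for Gstm4, highest in both without high-fat control 3. With the share of sense-intronic and unconfirmed transcripts as covariate they were 0.66 for Gstm2 and 0.62 for Gstm4.

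The other 3 members differed little between genotypes on the high-fat diet. Gstm5 had 7.49 to 8.26 CPM in high-fat knockouts and 6.31 to 12.7 CPM in high-fat controls, Gstm6 had 46.4 to 63.5 CPM in high-fat knockouts and 44.2 to 79.9 CPM in high-fat controls, and Gstm7 had 34.0 to 43.1 CPM in high-fat knockouts and 37.4 to 56.0 CPM in high-fat controls. Their log2 fold changes were -0.07 for Gstm5, -0.09 for Gstm6 and -0.20 for Gstm7, with standard errors of 0.19, 0.19 and 0.14. Without high-fat control 3 alone, Gstm5 turned to 0.22 and Gstm6 to 0.12, and Gstm7 stood at -0.04. With the share of sense-intronic and unconfirmed transcripts as covariate, Gstm5 turned to 0.31 and Gstm6 to 0.24, and Gstm7 stood at -0.05. All 3 turn positive when counts are scaled by the library total alone (0.16, 0.13 and 0.02), a scaling that moves the median log2 fold change of all genes to 0.228 in this comparison. In edgeR 1 of the 7 members, Gstm3, passed an adjusted p of 0.05 here, where 0.111% of the genes tested did, and 2 of 7, Gstm1 and Gstm3, were higher with no overlap between groups, as were 5.46% of the genes tested. Nothing is read from these counts.

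In these bulk samples fewer cells of a type and less RNA per cell cannot be told apart. The summed level of the 10 pericentral hepatocyte markers, all tested, was 8069 to 9965 CPM in high-fat knockouts and 12076 to 14289 CPM in high-fat controls, without overlap, and 8064 to 13989 CPM in chow knockouts and 9528 to 13623 CPM in chow controls. The 8 periportal markers summed to 4225 to 5964 CPM in high-fat knockouts, 5534 to 7968 CPM in high-fat controls, 7313 to 9109 CPM in chow knockouts and 6231 to 8765 CPM in chow controls. The 8 stellate cell and fibroblast markers summed to 604 to 925 CPM in high-fat knockouts, 479 to 685 CPM in high-fat controls, 561 to 602 CPM in chow knockouts and 443 to 598 CPM in chow controls. None of these markers was at 0 in any whole group. Fat markers, of which 1 of 4 passed the filter, summed to at most 23.0 CPM in high-fat knockouts and 6.35 CPM in high-fat controls. Their highest sums were 1.45 CPM in chow knockouts and 3.11 CPM in chow controls. The part of any of these cell types in the Gstm differences was not tested.

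**Figure D2:**
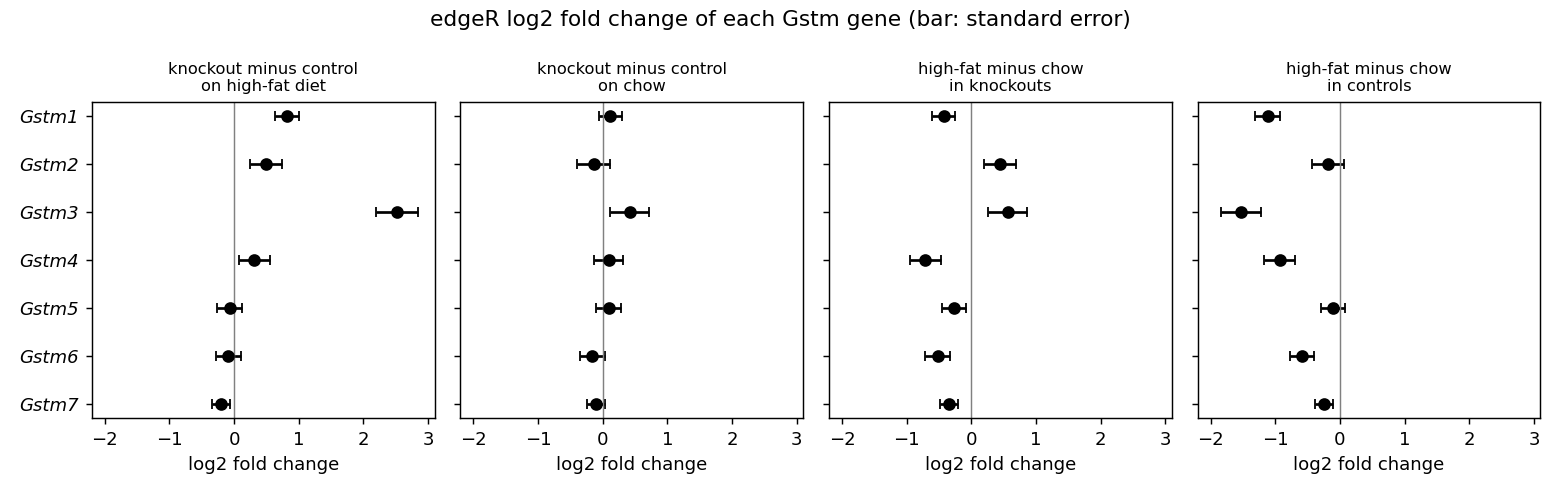
Log2 fold change (horizontal axis) of each Gstm gene in 4 comparisons, from edgeR, with the standard error as a bar. Gstm3 lies at 2.52 for knockout over control on the high-fat diet and at -1.53 for high-fat over chow in controls, while all members lie between -0.16 and 0.42 for knockout over control on chow, and the points of Gstm5, Gstm6 and Gstm7 in the high-fat panel turn positive with total-count scaling, and those of Gstm5 and Gstm6 also without high-fat control 3.

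Knockout and control livers on chow were not used to choose the family, and no member passed the test between them. Gstm3 had 45.7, 37.9, 54.1 and 66.6 CPM in chow knockouts, against 41.0, 45.0, 25.0 and 41.6 CPM in chow controls. The ranges overlapped, and the log2 fold change of 0.42 had a standard error of 0.30 and a 95% interval of -0.17 to 1.01 (edgeR quasi-likelihood F test, adjusted p = 0.662). Gstm1 had 879, 1101, 914 and 1235 CPM in chow knockouts, against 841, 1233, 955 and 769 CPM in chow controls. Its groups also overlapped, with a log2 fold change of 0.12 (standard error 0.18, 95% interval -0.24 to 0.48, edgeR adjusted p = 0.853).

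Among the other 5 members on chow, log2 fold changes ran from -0.16 for Gstm6 to 0.09 for Gstm4 and Gstm5, with edgeR adjusted p-values from 0.797 to 0.919. Gstm2 had 29.7 to 41.7 CPM in chow knockouts and 30.9 to 55.5 CPM in chow controls, Gstm4 had 27.5 to 38.0 CPM in chow knockouts and 25.2 to 38.3 CPM in chow controls, and Gstm5 had 8.82 to 10.4 CPM in chow knockouts and 7.96 to 10.5 CPM in chow controls. The ranges of all 3 overlapped. Gstm6 had 57.6 to 88.7 CPM in chow knockouts and 71.8 to 111 CPM in chow controls. Gstm7 had 43.5 to 53.2 CPM in chow knockouts and 43.3 to 57.4 CPM in chow controls. In total 0 of 7 members passed in edgeR, where 0.0139% of the genes tested did. At an unadjusted p under 0.05 there were 0 of 7, and 1366 of the 14351 genes tested. DESeq2 and limma-voom also called 0 of 7. The widest interval was that of Gstm3, and an upper bound of 1.01 leaves room for a difference of that size.

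Feeding the high-fat diet to control mice went with lower levels of Gstm1 and Gstm3. This comparison shares the high-fat controls with the one that chose the family, so it is not independent of that choice, and Gstm3 is described without a test. Gstm1 had 331, 534, 489 and 389 CPM in high-fat controls, against 841, 1233, 955 and 769 CPM in chow controls. No liver of one group reached the range of the other, and Gstm1 fell by 1.12 on the log2 scale, with a standard error of 0.19 (edgeR adjusted p = 0.00614).

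Gstm3 had 8.27, 18.2, 16.7 and 9.65 CPM in high-fat controls, against 41.0, 45.0, 25.0 and 41.6 CPM in chow controls. These groups did not overlap either, and the log2 fold change of Gstm3 was -1.53 (standard error 0.31), or -1.70 to -1.34 without any single liver. Gstm1 was called without any single liver, with log2 fold changes of -1.21 to -0.95.

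Gstm4 had 13.4, 17.0, 26.1 and 12.4 CPM in high-fat controls, against 32.9, 34.6, 25.2 and 38.3 CPM in chow controls. Only high-fat control 3 reached the range of the chow controls, and the log2 fold change of -0.93, with a standard error of 0.24, did not pass the test (edgeR adjusted p = 0.0539). DESeq2 called it, at -0.90 (adjusted p = 0.0146), as did edgeR with no filter (adjusted p = 8.14e-05). Without high-fat control 3 it was -1.20 (edgeR adjusted p = 0.00561), and without high-fat knockout 3, which is in neither group but enters the shared estimate of the spread, it was -0.90 (adjusted p = 0.0448). Gstm6 had 44.2, 49.4, 79.9 and 56.1 CPM in high-fat controls, against 111, 86.6, 71.8 and 75.5 CPM in chow controls. Here too high-fat control 3 was the only liver inside the other group's range. Gstm6 stood at -0.59 on the log2 scale, standard error 0.19, and did not pass (edgeR adjusted p = 0.119), and -0.79 without high-fat control 3 (adjusted p = 0.0124).

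Gstm7, Gstm2 and Gstm5 did not pass this test. Gstm7 had a log2 fold change of -0.25 (standard error 0.14, edgeR adjusted p = 0.394), Gstm2 of -0.19 (0.25, adjusted p = 0.778) and Gstm5 of -0.11 (0.19, adjusted p = 0.844). Of the 6 members other than Gstm3, edgeR called 1, Gstm1, which was lower, where 0.885% of the genes tested were called lower and 1.83% in either direction. Gstm1 and Gstm3 were lower with no overlap between groups, as were 4.01% of the genes tested, and nothing is read from the part of Gstm3 in that count. With total-count scaling Gstm1 was still called, at -1.01, and Gstm3 stood at -1.44.

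**Figure D3:**
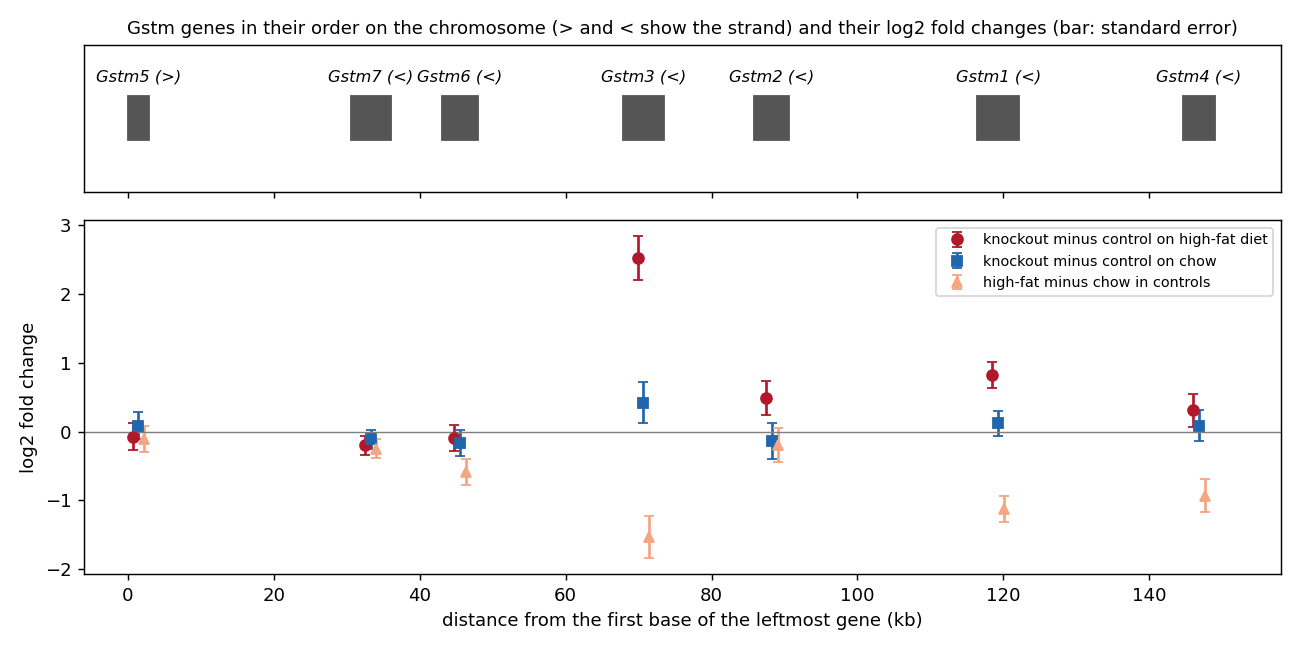
Top, the Gstm genes at their distance in kb from the first base of Gstm5, with the strand marked. Bottom, the log2 fold change of each gene (vertical axis, bar for the standard error) in 3 comparisons. The 2 genes with the lowest values by diet in controls, Gstm3 at -1.53 and Gstm1 at -1.12, have Gstm2, at -0.19 and not called, between them.

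In chromosome order, from Gstm5 to Gstm4, the log2 fold changes by diet in controls were -0.11, -0.25, -0.59, -1.53, -0.19, -1.12 and -0.93. Whether the differences go with position in the cluster was not tested. Gstm2 lies between Gstm3 and Gstm1 and was neither called by diet in controls nor separated between genotypes on the high-fat diet. Gstm4, at the far end beyond Gstm1, had the third lowest value in controls by diet, which was not called. Gstm5 and Gstm7, at the other end, had the smallest log2 fold changes in controls beside Gstm2.

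High-fat and chow knockouts were compared in the same way. This comparison also shares livers, the high-fat knockouts, with the one that chose the family. Gstm3 had 121, 72.2, 39.6 and 69.0 CPM in high-fat knockouts, against 45.7, 37.9, 54.1 and 66.6 CPM in chow knockouts. The ranges overlapped, with a log2 fold change of 0.56 (standard error 0.30). With total-count scaling, which moves the median of all genes to 0.363 here, it was 0.92.

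Gstm1 had 803, 859, 609 and 799.9 CPM in high-fat knockouts, against 879, 1101, 914 and 1235 CPM in chow knockouts. Every high-fat knockout was below every chow knockout, but the log2 fold change of -0.43, with a standard error of 0.18, did not pass (edgeR adjusted p = 0.137), and it was -0.08 with total-count scaling. Gstm4 had 26.7, 25.9, 13.3 and 19.5 CPM in high-fat knockouts, against 37.0, 38.0, 27.5 and 36.9 CPM in chow knockouts. It also did not overlap, and the log2 fold change of -0.71 (standard error 0.24) did not pass (edgeR adjusted p = 0.0616). With total-count scaling Gstm4 stood at -0.35 (edgeR adjusted p = 0.26). High-fat control 3 is in neither of these groups but enters the shared estimate of the spread. Without that liver Gstm4 stood at -0.70 and passed (edgeR adjusted p = 0.0207), as did Gstm6 at -0.52 (0.0300) and Gstm7 at -0.34 (0.0416).

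Gstm2 was the other member with a positive value in knockouts. It had 71.5, 46.1, 33.5 and 58.2 CPM in high-fat knockouts, against 41.5, 29.7, 41.7 and 41.0 CPM in chow knockouts, a log2 fold change of 0.44 with a standard error of 0.25 (edgeR adjusted p = 0.263), or 0.79 and called with total-count scaling (edgeR adjusted p = 0.0332). Gstm5, Gstm6 and Gstm7 had log2 fold changes of -0.27, -0.52 and -0.35 (edgeR adjusted p = 0.373, 0.0854 and 0.124). With total-count scaling Gstm5 turned to 0.07, and Gstm6 and Gstm7 stood at -0.19 and -0.01. Of the 6 members other than Gstm3, 0 passed in edgeR, where 10.6% of the genes tested did, and 4 had an unadjusted p under 0.05, as did 4135 of the 14351 genes tested. DESeq2 and limma-voom each called 1, Gstm4. Of all genes tested, DESeq2 called 1177 higher and 1092 lower here, and limma-voom 807 higher and 777 lower. Gstm1, Gstm4, Gstm5 and Gstm7, 4 of 7, were lower with no overlap between groups, as were 12.4% of the genes tested.

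The difference between the 2 genotype differences, the interaction, was 2.10 on the log2 scale for Gstm3, with a standard error of 0.43, and 0.70 for Gstm1, with a standard error of 0.26. It was 0.63 (0.36) for Gstm2, 0.22 (0.33) for Gstm4, 0.07 (0.27) for Gstm6, -0.09 (0.20) for Gstm7 and -0.16 (0.27) for Gstm5, with standard errors in brackets. The signs of Gstm5 and Gstm7 turn with total-count scaling (0.09 and 0.14). Of all genes tested, 0 passed an adjusted p of 0.05 for the interaction in edgeR and 0 in limma-voom, 1615 had an unadjusted p under 0.05, and DESeq2 called 83.

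**Figure D4:**
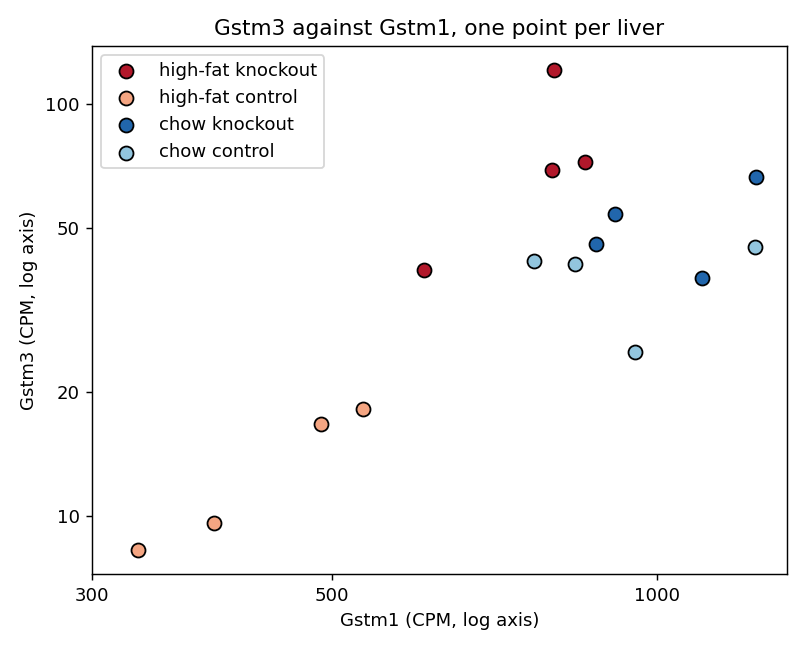
Gstm3 (vertical axis) against Gstm1 (horizontal axis), both in CPM on log axes, with 1 point per liver and colours for the 4 groups. The 4 high-fat controls lie apart at the lower left, at or below 18.2 CPM of Gstm3 and 534 CPM of Gstm1, while each high-fat knockout has more Gstm3 relative to Gstm1 than any chow liver.

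Ratios of counts within a liver do not depend on the scaling between livers. The log2 ratio of Gstm3 to Gstm1 counts was -2.73, -3.57, -3.94 and -3.54 in high-fat knockouts, against -5.32, -4.88, -4.88 and -5.33 in high-fat controls. It was -4.27, -4.86, -4.08 and -4.21 in chow knockouts, against -4.36, -4.78, -5.25 and -4.21 in chow controls. So the ratio was higher in every high-fat knockout than in any other liver, and the chow groups overlapped. Against the steadiest member, the log2 ratio of Gstm1 to Gstm7 counts averaged 4.33 ± 0.297 in high-fat knockouts, 3.32 ± 0.391 in high-fat controls, 4.41 ± 0.239 in chow knockouts and 4.18 ± 0.239 in chow controls (SD, n = 4 each). The log2 ratio of Gstm3 to Gstm7 averaged 0.887 ± 0.753 in high-fat knockouts, -1.79 ± 0.563 in high-fat controls, 0.0549 ± 0.281 in chow knockouts and -0.474 ± 0.41 in chow controls. In both ratios to Gstm7 the high-fat controls lay below all other livers, but high-fat control 2 only barely. For Gstm1 it had 3.83, against 3.87 in chow control 1, and for Gstm3 -1.04, against -1.03 in chow control 3.

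Because reads could be shared out wrongly among close copies, the 7 genes were also summed. A sum does not restore reads that were dropped or counted for genes outside the family. With such genes Gstm1 shared 18.4% and Gstm3 24.0% of their 50-base windows. The summed Gstm level was 1118, 1099, 789 and 1062 CPM in high-fat knockouts, against 481, 698, 734 and 537 CPM in high-fat controls. It was 1114, 1338, 1188 and 1526 CPM in chow knockouts, against 1147, 1495, 1167 and 1030.1 CPM in chow controls. High-fat controls had the lowest sums, below every liver of the other 3 groups. The group means were 1017 ± 154 CPM in high-fat knockouts, 613 ± 123 CPM in high-fat controls, 1291 ± 182 CPM in chow knockouts and 1209.7 ± 199 CPM in chow controls (SD, n = 4 each).

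The log2 ratio of the mean sums was 0.73 for knockout over control on the high-fat diet, 0.09 for knockout over control on chow, -0.35 for high-fat over chow in knockouts and -0.98 for high-fat over chow in controls. The third of these was -0.002 with total-count scaling. Gstm1 made up 75.7 ± 2.8% of the sum in high-fat knockouts, 71.1 ± 4.35% in high-fat controls, 79.8 ± 2.34% in chow knockouts and 78.1 ± 4.75% in chow controls. The sum therefore mostly follows Gstm1. Gstm3 made up 7.23 ± 2.51% of the sum in high-fat knockouts, 2.1 ± 0.415% in high-fat controls, 3.96 ± 0.777% in chow knockouts and 3.19 ± 0.816% in chow controls. Its lowest share in a high-fat knockout, 5.02%, was above its highest in any other group, 4.56%. Without Gstm1 the other 6 genes summed to 249 ± 55.9 CPM in high-fat knockouts, 177 ± 46.2 CPM in high-fat controls, 259 ± 27.7 CPM in chow knockouts and 260.4 ± 38.5 CPM in chow controls, and the groups overlapped.

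**Figure D5:**
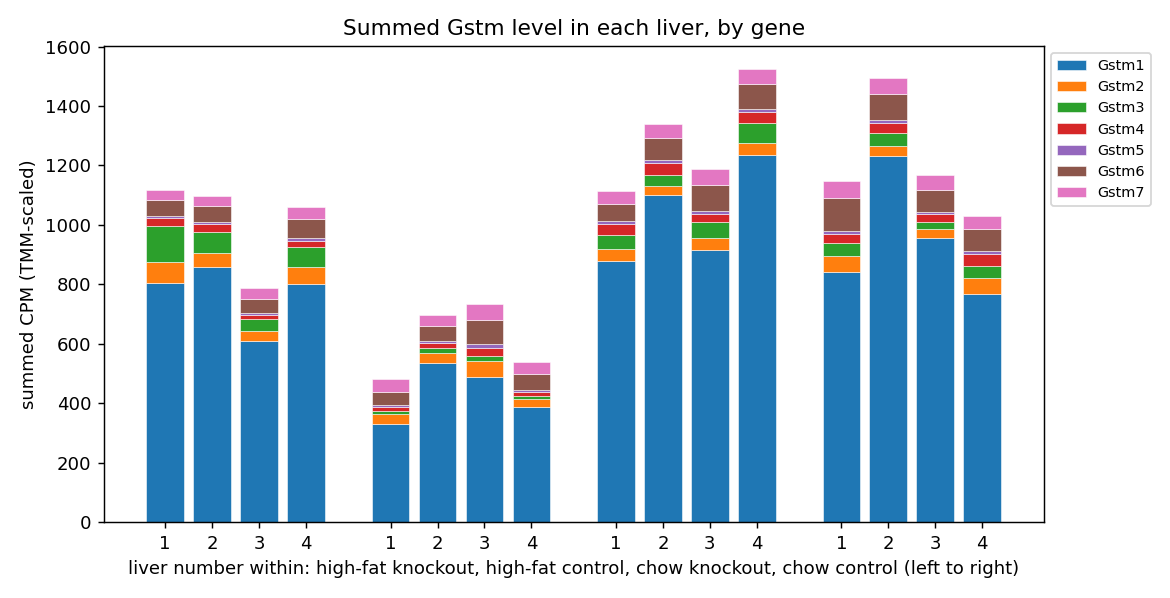
Summed level of the Gstm genes in each of the 16 livers (vertical axis, CPM), stacked by gene, with livers in groups from left to right as named under the axis. The 4 high-fat controls have the lowest bars (481 to 734 CPM), Gstm1 fills most of every bar, and Gstm3 makes up 5.02% or more of each high-fat knockout's bar.

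The genes whose profile over the 16 livers was most like that of Gstm1 were found by the root mean square difference of log2 CPM, each centred on its own mean, among 9879 genes averaging a log2 CPM of 2 or more. They were Ephx1, at a difference of 0.29, Rras at 0.291, Gabbr2 at 0.326, Arhgdia at 0.33 and Cyb5r3 at 0.342, set against a spread of 0.541 for Gstm1 about its own mean. Ephx1, the microsomal epoxide hydrolase, averaged 343 CPM in high-fat knockouts, 259 CPM in high-fat controls, 417 CPM in chow knockouts and 387 CPM in chow controls. Gstm4 came next after these, at 0.342, and Gstm6 ranked 190. Gstm3, which varied more, ranked 7824 at 0.698.

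For Gstm3 the nearest profiles were those of Lpl, which encodes lipoprotein lipase, at 0.696, Gstm1 at 0.698, Samd4 at 0.746, Ano10 at 0.752 and Gabbr2 at 0.755, against a spread of 1.03 for Gstm3 itself. Lpl averaged 44.1 CPM in high-fat knockouts, 23.3 CPM in high-fat controls, 60.6 CPM in chow knockouts and 30.2 CPM in chow controls. Unlike Gstm3, Lpl was separated between genotypes on chow, at 47.5 to 70.0 CPM in chow knockouts against 24.2 to 37.6 CPM in chow controls, and overlapped on the high-fat diet, at 29.2 to 63.3 CPM in high-fat knockouts against 13.8 to 35.6 CPM in high-fat controls. All these profiles come from the same 16 libraries, so the differences are descriptions.

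Of 20 other glutathione transferases, 16 were tested. Between genotypes on the high-fat diet 0 passed in edgeR, with a median log2 fold change of -0.45 against 0.0259 for all genes tested, and 4 of 16 positive. There 9 had an unadjusted p under 0.05, DESeq2 called 3 and limma-voom 0. The smallest p belonged to Gstk1, the kappa-class enzyme of mitochondria and peroxisomes, at 108 ± 14.9 CPM in high-fat knockouts and 171 ± 44.4 CPM in high-fat controls (log2 fold change -0.67, standard error 0.17, edgeR adjusted p = 0.0953). On chow 0 of 16 passed in edgeR, DESeq2 or limma-voom, the median was -0.24 with 2 of 16 positive, and 1 had an unadjusted p under 0.05. That 1 was Gsta2, an alpha-class enzyme, at 7.23 ± 2.15 CPM in chow knockouts and 12.8 ± 3.41 CPM in chow controls (edgeR adjusted p = 0.509).

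By diet, Gstp1, the pi-class enzyme, was the other abundant transferase that fell. It averaged 335 ± 71.3 CPM in high-fat knockouts and 774 ± 274 CPM in chow knockouts, a fall of 1.21 on the log2 scale with a standard error of 0.34 (edgeR adjusted p = 0.0330). In controls it averaged 358 ± 109 CPM on the high-fat diet and 916 ± 433 CPM on chow, and the log2 fold change of -1.36 did not pass (edgeR adjusted p = 0.0511). The diet groups of Gstp1 overlapped in both genotypes. In knockouts they held 279 to 439 CPM on the high-fat diet and 395 to 1049 CPM on chow. In controls they held 247 to 498 CPM on the high-fat diet and 357 to 1313 CPM on chow. The call of Gstp1 in knockouts was lost with total-count scaling. In knockouts Gsto1, an omega-class enzyme, also fell, by 0.48 (edgeR adjusted p = 0.0421), and Hpgds, which makes prostaglandin D, rose by 1.18 (edgeR adjusted p = 0.0495). In controls Gstk1 rose by 0.74, at 171 ± 44.4 CPM on the high-fat diet and 103 ± 16.6 CPM on chow (edgeR adjusted p = 0.0300).

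Of 17 genes of glutathione synthesis, recycling and breakdown, 14 were tested, and 1 passed in any comparison in edgeR. Gclm, the modifier subunit of the rate-limiting enzyme of glutathione synthesis, averaged 169.6 ± 9.9 CPM in high-fat knockouts and 243 ± 41.3 CPM in chow knockouts, a fall of 0.52 on the log2 scale (edgeR adjusted p = 0.0321). Between genotypes 0 of 14 passed in edgeR on the high-fat diet, with a median of -0.22, and 0 of 14 on chow, with a median of -0.1. At an unadjusted p under 0.05 there were 4 and 2, and DESeq2 called 2 and 1. All 11 glutathione peroxidases and peroxiredoxins, which remove peroxides, were tested, and 0 passed in any comparison in edgeR. At an unadjusted p under 0.05 there were 4 between genotypes on the high-fat diet, 0 on chow, 3 by diet in knockouts and 1 by diet in controls. Of all 14351 genes tested, 3066, 1366, 4135 and 2449 had such a p in these comparisons. DESeq2 called 1, between genotypes on the high-fat diet, and limma-voom 0.

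All 14 genes of conjugate export and of other conjugating enzymes were tested. In knockouts 3 rose with the high-fat diet in edgeR, the conjugate exporters Abcc1 (by 0.83, adjusted p = 0.0322) and Abcc5 (by 1.19, adjusted p = 0.00749), and the glucuronosyltransferase Ugt1a6a (by 1.37, adjusted p = 0.0259). In controls 2 rose, Ugt1a6a by 1.54 (edgeR adjusted p = 0.0415) and the sulfotransferase Sult1d1 by 1.45 (edgeR adjusted p = 0.0263). Both varied widely between high-fat controls. Ugt1a6a had 9.78 ± 6.14 CPM there (4.2 to 17.2), against 3.37 ± 0.649 CPM in chow controls (2.53 to 4.04). Sult1d1 had 305 ± 188 CPM in high-fat controls (176 to 578), against 112 ± 30.9 CPM in chow controls (86.8 to 151). Between genotypes 0 of 14 passed in edgeR on either diet, with medians of 0.16 on the high-fat diet and 0.14 on chow. At an unadjusted p under 0.05 there were 7 and 0, and DESeq2 called 4 and 0.

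Of the 16 Nrf2 targets outside glutathione metabolism, all tested, 0 passed between genotypes in edgeR. The median log2 fold change was 0.24 on the high-fat diet, with 12 of 16 positive, and -0.19 on chow, with 5 of 16 positive. At an unadjusted p under 0.05 there were 6 and 1, and DESeq2 called 1 and 0. Pgd, of the pentose phosphate pathway, averaged 22.3 ± 3.4 CPM in high-fat controls and 38.4 ± 6.39 CPM in chow controls, a fall of 0.79 on the log2 scale (edgeR adjusted p = 0.0401). It averaged 35.4 ± 7.67 CPM in high-fat knockouts, a log2 fold change of 0.67 over high-fat controls that did not pass (edgeR adjusted p = 0.103). In knockouts Srxn1, sulfiredoxin, rose by 0.68 with the high-fat diet (edgeR adjusted p = 0.0378) and Cbr3, a carbonyl reductase, by 1.91 (edgeR adjusted p = 0.0427) at levels of 1.72 ± 1.44 CPM in high-fat knockouts and 0.444 ± 0.201 CPM in chow knockouts.

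The 12 genes listed as targets of the constitutive androstane and pregnane X receptors, all tested, are mostly cytochrome P450 genes. Between genotypes on the high-fat diet their median log2 fold change was -0.85 and none of the 12 was positive. Cyp2c37, a cytochrome P450, was the 1 that passed, at 148 ± 46.1 CPM in high-fat knockouts and 402 ± 121 CPM in high-fat controls, and it fell by 1.44 (edgeR adjusted p = 0.0398). DESeq2 called 4 of the 12 there and limma-voom 1, and 7 had an unadjusted p under 0.05. On chow the median was 0.07, and 0 of 12 passed in edgeR, DESeq2 or limma-voom or had an unadjusted p under 0.05. The high-fat diet went with a large rise of Cyp2b9, to 85.6 ± 40.2 CPM in high-fat knockouts, against 0.166 ± 0.155 CPM in chow knockouts (edgeR adjusted p = 3.2e-06). Cyp2b9 had 117 ± 54.1 CPM in high-fat controls and 0.124 ± 0.135 CPM in chow controls (edgeR adjusted p = 1.08e-06). In controls Cyp2b13 also passed, at 2.99 ± 2.36 CPM on the high-fat diet and 0 counts in all 4 chow controls (edgeR adjusted p = 0.0158). In knockouts Cyp2c29, Cyp2c37 and Cyp2c55 fell with diet, by 1.40, 1.17 and 2.22 on the log2 scale (edgeR adjusted p = 0.00219, 0.0113 and 0.00604).

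Among 14 regulators, all tested, 1 passed in any comparison in edgeR. Nr1i3, the constitutive androstane receptor itself, averaged 208 ± 41.1 CPM in high-fat knockouts and 102 ± 42.8 CPM in chow knockouts, and rose by 1.03 (edgeR adjusted p = 0.0139). In controls it averaged 232 ± 53.2 CPM on the high-fat diet and 91.8 ± 14.3 CPM on chow, and rose by 1.34 (edgeR adjusted p = 0.00909). Between genotypes 0 of 14 regulators passed in edgeR, DESeq2 or limma-voom on either diet, with medians of 0.15 and 0.08, and 2 and 1 had an unadjusted p under 0.05. The smallest p on chow belonged to Keap1, the inhibitor that holds Nrf2 in the cytosol, at 41.9 ± 3.62 CPM in chow knockouts and 52.6 ± 3.39 CPM in chow controls (log2 fold change -0.33, edgeR adjusted p = 0.426). Over all 7 lists together, with 97 genes tested, edgeR called 1 between genotypes on the high-fat diet, 0 on chow, 14 by diet in knockouts and 7 by diet in controls, beside 0.111%, 0.0139%, 10.6% and 1.83% of all genes tested. On chow 5 of the 97 had an unadjusted p under 0.05, DESeq2 called 1 and limma-voom 0. Of the edgeR calls, those of Gstp1, Gsto1, Gclm and Pgd were lost with total-count scaling, which added Abcc1 and Pgd between genotypes on the high-fat diet and further calls by diet. That scaling gave medians between genotypes on the high-fat diet of -0.21 for the other transferases, -0.01 for glutathione synthesis, -0.16 for the peroxidases, 0.49 for the Nrf2 targets and -0.6 for the receptor targets.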

How the data were processed

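Per the labels' protocols, libraries of 16 mouse livers were made from total RNA with a stranded Illumina kit after ribosomal RNA depletion. The table deposited by the authors gives whole-number read counts per Ensembl gene, not normalized. The submitters' processing notes name GRCm38 together with STAR 2.5.4a, featureCounts 1.5.1 and DESeq2. The sources used here do not give the strand setting or the treatment of multiply mapped reads. Groups come from diet and genotype in the sample titles, and 0 columns were left unmapped.

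Symbols, positions and transcripts come from GENCODE M21 and promoters from RefSeq. Genes were filtered with filterByExpr (minimum count 10), scaled by TMM and fitted over all 16 livers with 1 term per group in edgeR 4.0.16 (R 4.3.3). Quasi-likelihood F tests were adjusted by Benjamini-Hochberg over 14351 genes at 0.05. Dividing the size of the log2 fold change by the root of F gave its standard error, and 95% intervals are 1.96 standard errors. A count of 3 is 0.129 to 0.251 CPM. Counts of livers of 1 group differed by a chi-square of 12.28 to 125.6 per degree of freedom, more than sampling noise. The fit was tested on simulated data.

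The members, the 7 gene lists, the 11 marker lists and the tests were chosen with earlier results of these data known. The text names every member, Degs1, list genes past the threshold or with the smallest p, and the 5 nearest profiles of Gstm1 and Gstm3. Further list members named by that rule are left out for length. Alternatives were DESeq2 1.42.0, limma-voom (limma 3.58.1), other scalings, filters and fits, and each liver left out, run for the members and the counts over all genes and not for single list genes. Total-count scaling, run for the lists too, was added after seeing the data.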

Additional observations from a re-analysis of the deposited data

Results flagged for a closer look

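Of the 28 sets of 4 livers formed by 7 members and 4 groups, 2 held a liver far from the other 3 by Dixon's criterion at 95%. Chance flags about 1 in 20 such sets. Gstm2 was at 29.7 CPM in chow knockout 2, against 41.0 to 41.7 CPM in the other 3 chow knockouts. Gstm4 was at 27.5 CPM in chow knockout 3, against 36.9 to 38.0 CPM in the other 3. Both were the lowest of their group, in different livers, and neither gene was called between genotypes on chow with or without either liver.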

How the results depend on the processing

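No paired analysis was possible because animal numbers in the labels are unique to a liver, so none is shared between groups. Members called between genotypes on the high-fat diet numbered 1 (Gstm3), 2 with DESeq2, with no filter or with total-count scaling (Gstm1 added), and 0 when only the groups compared were fitted or with the share of sense-intronic and unconfirmed transcripts as covariate. They were 1 without any single liver. In knockouts by diet the count was 0, but 1 with DESeq2 or limma-voom (Gstm4), 2 with no filter (Gstm3, Gstm4) or total counts (Gstm2, Gstm3), and 3 (Gstm4, Gstm6, Gstm7) with only the groups compared or without high-fat control 3 and chow knockout 1. Leaving out 1 liver gave 0 to 3. In controls by diet it was 2 (Gstm1, Gstm3), but 3 with DESeq2 (Gstm4 added), 4 with no filter and 5 without those 2 libraries, and 1 to 4 without 1 liver. For the interaction it was 0, beside 0 of all genes tested, and 1 (Gstm3) with DESeq2 or no filter. Over all genes DESeq2 called 39 higher and 44 lower for the interaction, and edgeR with no filter 145 higher and 114 lower. On chow it was 0 in all 26 alternatives. Nothing is read from Gstm3 in these counts where its high-fat livers enter. The cause of these moves was not tested. The log2 ratio of summed levels by diet in knockouts was -0.35, and -0.002 by total count. Without 1 liver it was -0.41 to -0.241, and the other ratios were 0.631 to 0.835 (knockout on high-fat diet), 0.004 to 0.212 (knockout on chow) and -1.081 to -0.864 (diet in controls).

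Counts over all genes moved more. Between genotypes on the high-fat diet 16 were called, and 0 to 964 under the alternatives; on chow 2, and 0 to 308; by diet in knockouts 1516, and 465 to 3320; by diet in controls 262, and 75 to 1219; for the interaction 0, and 0 to 259. The share of calls that were higher was 56.2% between genotypes on the high-fat diet, 49.3% by diet in knockouts and 51.5% by diet in controls. With total-count scaling it was 93.0%, 94.5% and 77.1%, and with upper-quartile factors 79.4%, 69.7% and 63.0%. Total-count scaling moved the median log2 fold change of all genes to 0.228, 0.363 and 0.125 in these comparisons and to 0.216 for the interaction. The count table gives 93 to 232 reads for Gstm5, the scarcest member, so its small differences are the least certain.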
